A study of Mus musculus with 4 samples.

Results

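Nppc, Hmcn2, Medag, Erfe, Adamtsl1 and Tnfaip6 are 6 of the 25804 gene symbols counted in single mouse muscle cells. They encode secreted or extracellular proteins, apart from Medag, whose product is described as cytoplasmic. They were taken by symbol, each on 1 feature in all 4 libraries, and were chosen by their summed UMIs per library, which were far higher in the freshly isolated cells than elsewhere. That contrast is therefore given as a description. What the choice did not fix is how the genes vary among the fresh cells, which cells carry them elsewhere, and how the other genes of their pathways lie.

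The study compared 4 kinds of cell from Pax7-nGFP mice, whose nuclear GFP reports the activity of Pax7, a transcription factor of muscle stem cells (satellite cells). The MPC library held cells from a male mouse aged 16 weeks, kept through 2 passages as myoblasts and 5 more passages in MPC medium with Forskolin at 5 µM (which raises cAMP), Repsox at 5 µM (a TGF-beta receptor inhibitor) and CHIR9901 at 3 µM, by its label. The myoblast library held cells from a male mouse aged 16 weeks after 2 passages in myoblast medium. Neither culture was sorted. The ASC library (activated satellite cells) was sorted for GFP from 17 tibialis anterior muscles of male and female mice aged 18 to 24 weeks, taken 3 days after cardiotoxin at 10 µM. The fiSC library (freshly isolated satellite cells) was sorted for GFP from the pooled limb muscles of 3 male mice aged 13 weeks. Both sorted libraries were made after collagenase digestion. There was 1 library a group, so that animal, batch, library and group cannot be told apart and no test was run. In bulk sums of a library, fewer cells of a type and less RNA per cell cannot be told apart either, so levels in progenitor-like cells (clusters named from myogenic progenitor markers) are given beside the sums where the 2 differ most.

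Satellite cells lie quiescent between the muscle fibre and its basement membrane, leave that state after injury, divide and make myoblasts. The matrix and the signals around them are part of what is called their niche. Nppc encodes C-type natriuretic peptide, which acts on the receptor guanylyl cyclase Npr2 and raises cGMP. Erfe encodes erythroferrone, a hormone best known from erythroid precursors, where it binds BMP ligands and lowers hepcidin. Hmcn2 encodes hemicentin 2, a very large matrix protein related to the fibulins. Adamtsl1 encodes a secreted ADAMTS-like matrix protein that has no protease domain. Tnfaip6 encodes TSG-6, a hyaluronan-binding protein induced by inflammatory cytokines. Medag is an adipogenesis gene that promotes fat cell differentiation in culture.

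The start regions of the genes were read from RefSeq (GRCm38.p6), which held a window of 300 bases (250 before the start and 50 after) for 5 of the 6 genes. The counts were made on another build, so no count was placed by these coordinates. They are shown because the genes are high in the same library yet differ within it, with Nppc and Erfe lying on opposite sides among the fresh cells and Hmcn2 and Tnfaip6 each carrying an AP-1 letter match. Capitals mark TATAAA and TGANTCA (AP-1), each searched on both strands.
Nppc, chr1:86670524-86670823, minus strand: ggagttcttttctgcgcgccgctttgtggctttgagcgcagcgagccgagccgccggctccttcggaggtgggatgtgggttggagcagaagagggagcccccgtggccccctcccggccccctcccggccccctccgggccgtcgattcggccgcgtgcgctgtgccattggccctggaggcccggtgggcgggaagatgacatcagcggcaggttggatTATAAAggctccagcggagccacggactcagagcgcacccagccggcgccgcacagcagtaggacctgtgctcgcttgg
Erfe, chr1:91366180-91366479, plus strand: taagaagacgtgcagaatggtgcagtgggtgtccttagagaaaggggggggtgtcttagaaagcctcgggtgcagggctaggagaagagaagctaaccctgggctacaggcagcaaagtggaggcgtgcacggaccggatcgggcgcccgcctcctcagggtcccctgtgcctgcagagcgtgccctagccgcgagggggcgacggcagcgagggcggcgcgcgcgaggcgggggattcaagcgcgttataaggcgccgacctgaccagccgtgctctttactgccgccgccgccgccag
Hmcn2, chr2:31314082-31314381, plus strand: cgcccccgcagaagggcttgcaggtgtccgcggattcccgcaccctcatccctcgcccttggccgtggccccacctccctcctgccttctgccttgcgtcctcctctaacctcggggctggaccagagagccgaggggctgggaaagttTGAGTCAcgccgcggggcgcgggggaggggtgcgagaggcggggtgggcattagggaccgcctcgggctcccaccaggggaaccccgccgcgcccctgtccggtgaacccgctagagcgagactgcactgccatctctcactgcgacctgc
Tnfaip6, chr2:52037863-52038162, plus strand: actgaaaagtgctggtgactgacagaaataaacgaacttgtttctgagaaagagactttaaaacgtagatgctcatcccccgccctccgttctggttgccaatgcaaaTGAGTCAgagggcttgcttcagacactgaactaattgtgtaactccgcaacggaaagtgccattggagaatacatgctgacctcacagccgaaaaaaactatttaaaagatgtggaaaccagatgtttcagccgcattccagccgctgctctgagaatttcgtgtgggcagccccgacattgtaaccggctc

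The Nppc window held TATAAA beginning 29 bases before the start, which 13.6% of the 32851 windows of the same length hold in some position. The Hmcn2 window held TGANTCA beginning 101 bases before its start and the Tnfaip6 window 142 bases before its start, a motif in 7.81% of all windows. Neither motif was in the Erfe window or in either window of Medag. The cAMP response element TGACGTCA, in 1.79% of windows, was in no window of these genes. The E-box CANNTG, in 72.3% of windows, was absent from the windows of Nppc and Erfe. The TGANTCA match of Tnfaip6 shares letters with an E-box, and no other capitals do. A match is a description of these letters only.

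The retained cells numbered 9096 in MPC, 2365 in myoblast, 6446 in ASC and 2192 in fiSC, with 135956672, 55139531, 179085373 and 20031950 UMIs (counted molecules) in that order. The median cell held 13236 UMIs in MPC, 22911 in myoblast, 19810.5 in ASC and 8769 in fiSC. Any 2 libraries shared 2 to 18 cell barcodes. The satellite cell label of fiSC held on 12 of 12 myogenic progenitor markers at 20 CPM or more (a gene's UMIs summed over cells and scaled to 1 common library total), against 8 of 12 in each of the other libraries. ASC was labelled as activated satellite cells but all 12 macrophage markers reached 20 CPM there, with a sum of 9789 CPM against 29.3 CPM in fiSC, and macrophage-like clusters held 3013 of its 6446 cells. All intervals below are exact Poisson or exact binomial (Clopper-Pearson) 95% intervals that cover counting error only.

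Nppc stood at 9.75 CPM in MPC (9.24 to 10.29), 0.018 CPM in myoblast (1 UMI in 2365 cells), 0.759 CPM in ASC (0.637 to 0.898) and 811 CPM in fiSC (799 to 824). Hmcn2 stood at 4.77 CPM in MPC (4.41 to 5.15), 5.59 CPM in myoblast (4.98 to 6.25), 0.793 CPM in ASC (0.668 to 0.935) and 787 CPM in fiSC (775 to 799.6). Medag stood at 19.7 CPM in MPC (18.98 to 20.5), 1.03 CPM in myoblast (0.783 to 1.34), 1.88 CPM in ASC (1.69 to 2.09) and 792 CPM in fiSC (780.2 to 805). The order below fiSC thus differed between the peptide hormone and the matrix protein, with MPC second for Nppc and Medag, and myoblast and MPC close together for Hmcn2.

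Erfe stood at 9.44 CPM in MPC (8.94 to 9.98), 5.01 CPM in myoblast (4.43 to 5.63), 2.99 CPM in ASC (2.74 to 3.25) and 892 CPM in fiSC (879 to 905.5). Adamtsl1 stood at 4.21 CPM in MPC (3.88 to 4.57), 4.99 CPM in myoblast (4.41 to 5.61), 4.19 CPM in ASC (3.90 to 4.50) and 599 CPM in fiSC (589 to 610.2). Tnfaip6 stood at 1.65 CPM in MPC (1.45 to 1.89), 0.381 CPM in myoblast (0.236 to 0.582), 6.73 CPM in ASC (6.36 to 7.13) and 549.8 CPM in fiSC (539.6 to 560.2). Erfe had the steps MPC over myoblast over ASC with no overlap of intervals, the 3 lower libraries overlapped for Adamtsl1, and Tnfaip6 was the only member with ASC as its second library. In fiSC the members ranked between 173 (Erfe) and 276 (Tnfaip6) among the 18657 genes with a UMI, whereas Medag at rank 6856 in MPC was the highest placed of them in any other library.

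**Figure D1:**
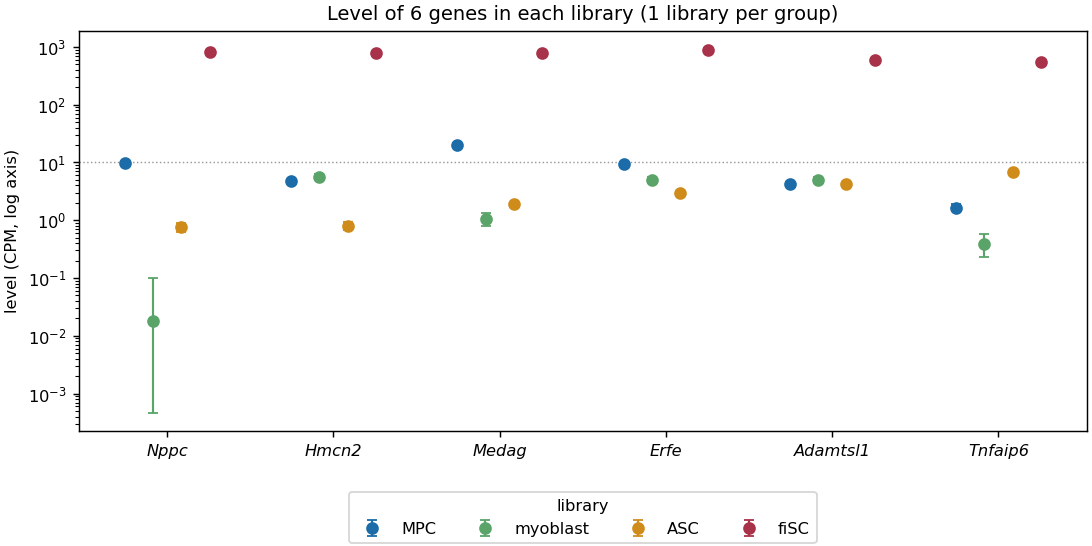
Level of each gene in each library, in CPM on a log axis, with libraries from left to right MPC, myoblast, ASC and fiSC. Points are the single library of each group, bars are exact Poisson 95% intervals and the dotted line marks 10 CPM. The fiSC points lie between 549.8 and 892 CPM, and 19.7 CPM (Medag in MPC) is the highest point of the other libraries.

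The size rule asked for a 2-fold ratio or more, taken on CPM plus 5, and for 10 CPM or more in whichever library was higher. All 6 genes met it as lower in MPC than in fiSC, where 15.8% of the genes measured did, as lower in myoblast, where 17.8% did, and as lower in ASC, where 21.1% did. The choice of the genes used these contrasts, so nothing is read from the counts. The median log2 ratio of the members was -6.00 in MPC over fiSC, against 0.35 over all measured genes, -6.59 in myoblast over fiSC, against 0.30, and -6.83 in ASC over fiSC, against 0.08. The 3 comparisons share the fiSC library. Without a pseudocount, Medag was 40.2-fold lower in MPC than in fiSC (38.6 to 41.9) and Tnfaip6 332-fold lower (291 to 381), the ends of the range in that library. In ASC the range ran from Tnfaip6, 81.6-fold lower (76.9 to 86.7), to Nppc, 1068-fold lower (902 to 1274). In myoblast the 1 UMI of Nppc gave a ratio 44718-fold lower, with a counting interval of 8025 to 1766389.9.

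Few genes were as lopsided, but the members were chosen by this contrast, so their places are a description. Of 3277 genes with at least 50 CPM in fiSC, ordered by the log2 ratio of the highest other library over fiSC, the members took place 2 (Hmcn2), 4 (Erfe), 7 (Adamtsl1), 8 (Nppc), 9 (Tnfaip6) and 20 (Medag). Hspa1b, an inducible heat shock protein, took place 1, Chodl, a C-type lectin, place 3 and Calcr, the calcitonin receptor of quiescent satellite cells, place 6. Calcr read 0.235 CPM in MPC, 0.0544 CPM in myoblast, 1.09 CPM in ASC and 364 CPM in fiSC. The BMP ligand Bmp6 took place 11. Members and other genes were interleaved in this order. Tnfaip6 at -5.56 and Arl4d at -5.52 lay next to each other, as did Cebpd at -5.04 and Medag at -5.01.

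The choice of genes used both cultures as low beside fiSC, but not their contrast with each other. Between the cultures, Medag was higher in MPC. It had 2681 UMIs in 9096 MPC cells and 57 UMIs in 2365 myoblast cells, a ratio of 19.1 (14.7 to 25.3) and a log2 ratio of 2.03 with the pseudocount. It was the 1 member that reached 10 CPM in either culture and it met the size rule, as did 6.85% of the genes measured in that direction. Of its 57 myoblast UMIs, 64.9% lay in 33 fibroblast-like cells and 75.4% in 10 cells. In progenitor-like cells alone it had 25.2 CPM in MPC and 0.389 CPM in myoblast, a ratio of 64.8 (40.4 to 111), so the ratio depends on which cells are summed. Nppc lay just under the level minimum at 9.75 CPM in MPC, against 0.018 CPM in myoblast. Erfe was 1.89-fold higher in MPC than in myoblast (1.65 to 2.16), and Tnfaip6 4.35-fold higher (2.77 to 7.16) at low counts. Hmcn2 was 0.853 times its myoblast level in MPC (0.744 to 0.980) and Adamtsl1 0.845 times (0.731 to 0.979), so both intervals ended just below equality.

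Among fiSC cells the genes were not spread evenly. Hmcn2 was found in 90.9% of the 2192 cells, Medag in 82.0%, Erfe in 78.9%, Adamtsl1 in 68.7%, Nppc in 62.6% and Tnfaip6 in 58.2%. Since fiSC cells were shallow, each cell was also thinned to 2000 UMIs, which left out 206 MPC, 77 myoblast, 640 ASC and 50 fiSC cells. The thinned shares in fiSC were 63.7% for Hmcn2 (61.6 to 65.7%), 61.6% for Erfe (59.5 to 63.7%), 60.3% for Medag (58.2 to 62.4%), 46.4% for Adamtsl1 (44.3 to 48.5%), 40.0% for Nppc (37.9 to 42.1%) and 36.3% for Tnfaip6 (34.3 to 38.4%). The matrix protein Hmcn2, Erfe and Medag had overlapping intervals, and Nppc and Tnfaip6 were found least often although Nppc had nearly the same total as Hmcn2.

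The thinned shares in the other libraries were far smaller. They ran from 0.236% (Tnfaip6) to 3.60% (Medag) in MPC, from 0 of 2288 cells (Nppc, which allows up to 0.161%) to 1.05% (Erfe) in myoblast, and from 0.103% (Nppc) to 1.31% (Tnfaip6) in ASC. ASC macrophage-like cells, which are not expected to make most of these proteins, set a background: of 2994 thinned cells with a median of 15941 UMIs before thinning, 0 had a UMI of Nppc, 0.0334% one of Erfe, 0.0668% one of Hmcn2 and of Medag, and 0.134% one of Adamtsl1. Tnfaip6 stood apart there at 1.74%.

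Counts per cell showed how concentrated each gene was. After thinning, the 214 fiSC cells with the most UMIs of Nppc held 67.1% of its UMIs. The same number of cells held 62.7% for Tnfaip6, 50.1% for Adamtsl1, 44.4% for Hmcn2, 40.3% for Medag and 37.2% for Erfe. Before thinning a single cell carried up to 194 UMIs of Nppc and 177 of Tnfaip6, against 104 of Hmcn2, 99 of Adamtsl1, 91 of Medag and 66 of Erfe. The UMIs of Nppc and Tnfaip6 were thus the most concentrated in rich cells, although many cells had some, and those of Erfe the least.

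**Figure D2:**
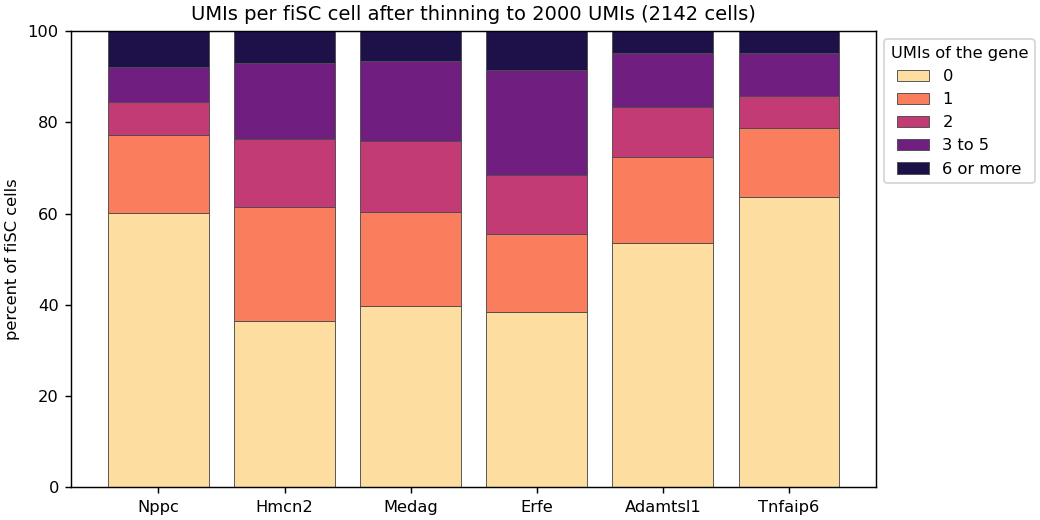
Share of the 2142 fiSC cells with 0, 1, 2, 3 to 5, or 6 or more UMIs of each gene after thinning every cell to 2000 UMIs. Nppc and Tnfaip6 have the largest shares at 0 (60.0 and 63.7%), while 7.84% of cells still carry 6 or more Nppc UMIs.

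The Fano factor (variance over mean, 1 for pure counting noise) of the thinned counts was 9.0 for Nppc, 5.82 for Tnfaip6, 4.09 for Hmcn2, 3.42 for Adamtsl1, 2.94 for Erfe and 2.79 for Medag. The 126 genes whose thinned mean lay in the range the members span had a median of 2.33. Nppc was place 2 and Tnfaip6 place 5 from the highest in that band, and Medag place 39. Hmcn2 was found in the most cells and yet was more uneven than Erfe, with 40 UMIs in its richest thinned cell, against 20 for Erfe.

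Cells usually carried several of the genes. Of the 2142 thinned cells, 64 had none of them, 203 had 1, 429 had 2, 584 had 3, 554 had 4, 273 had 5 and 35 had all 6. Across the 2092 progenitor-like fiSC cells the pairs were at most weakly related, with Pearson r between -0.18 (Nppc with Erfe) and 0.23 (Erfe with Adamtsl1). Adamtsl1 was found in 54.2% of cells with an Erfe UMI and in 34.9% of cells without one, and Erfe in 58.7% of cells with an Nppc UMI and in 65.9% of cells without one. Tnfaip6 had r between -0.02 and 0.08 with the others. These correlations are a description of sparse counts from 1 library at equal depth, and weak ones are no finding.

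Set against other genes of the same cells, Nppc and Erfe lay at opposite ends. Nppc had r = 0.41 with the summed immediate early and heat shock genes, 0.42 with Hspa1a, 0.38 with Fos, 0.25 with Pax7 and 0.19 with Calcr. Erfe had r = -0.38 with that sum, -0.44 with Hspa1a, -0.35 with Fos, -0.28 with Pax7 and -0.22 with Calcr. Adamtsl1 had the same sign as Erfe but weaker values, with -0.22 for the sum and -0.21 for Hspa1a. Hmcn2 had -0.17, Medag -0.11 and Tnfaip6 -0.01 for the sum. Depth before thinning had r = -0.20 with Hmcn2 and 0.10 with Nppc, and the mitochondrial share lay within -0.08 and 0.07 for all 6 genes.

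**Figure D3:**
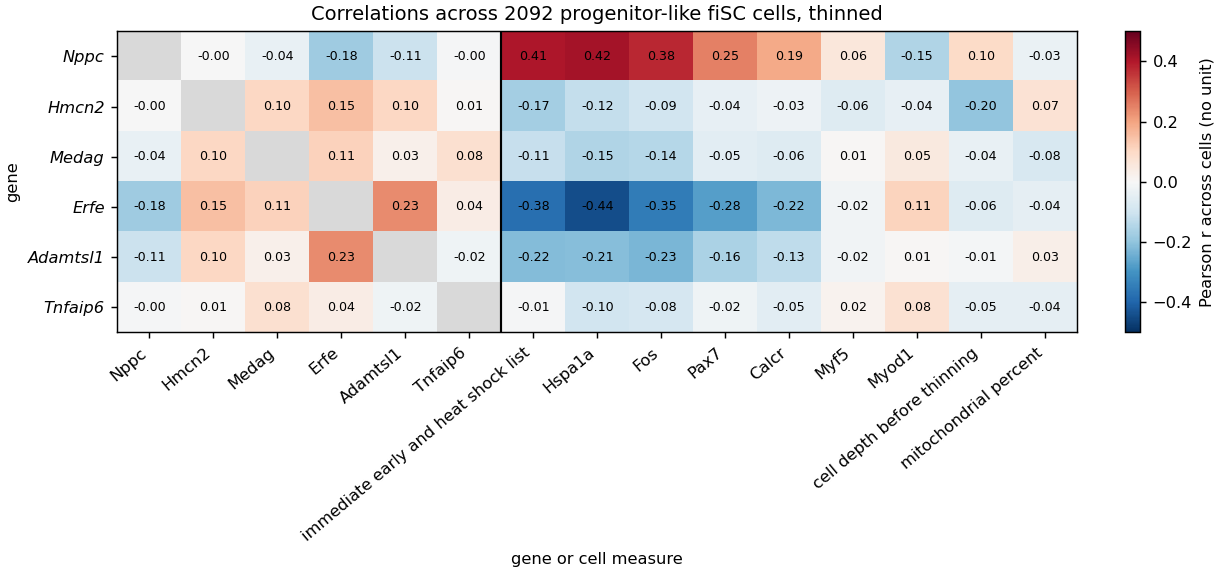
Pearson r across 2092 progenitor-like fiSC cells, each thinned to 2000 UMIs, between each gene (rows) and the other members, other genes and cell measures (columns). The Nppc row is positive and the Erfe row negative for the immediate early and heat shock list (0.41 and -0.38), Hspa1a and Pax7, and most pairs among the members lie near 0.

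Clusters of fiSC cells were made without the members, the myogenic and the cell cycle genes, but with the immediate early and heat shock genes. They showed the same split in the same cells, so it is not independent of the correlations above. Cluster 1 (593 cells) was led by Hspa1a, Fos and Hes1 and had Pax7 at 1417 CPM, Calcr at 864 CPM and Myod1, the commitment factor, at 109.9 CPM. Cluster 2 (745 cells) was led by Slco2a1, Sugct and Spock3 and had Pax7 at 502 CPM, Calcr at 155 CPM and Myod1 at 914 CPM. Cluster 3 (503 cells) was led by Slc22a23, Tnfrsf19 and Hk2, and cluster 4 (294 cells) by Alpk1, Slc10a6 and Adamts4. Cluster 5 (57 cells) was fibroblast-like, led by Postn and Col1a1, but it may hold mixed cells. It kept Pax7 at 758 CPM and 11 myogenic progenitor markers at 20 CPM or more, and it also had 9 endothelial markers at that level, with a sum of 1086 CPM, 8 macrophage markers, with a sum of 455 CPM, and 5 mural markers, with a sum of 1745 CPM.

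Nppc stood at 1871 CPM in cluster 1 (1836 to 1907), 286 CPM in cluster 2, 243 CPM in cluster 3 and 1058 CPM in cluster 4, so that cluster 1 held 66.3% of its fiSC UMIs. Erfe was the mirror image, at 244 CPM in cluster 1 (231 to 257), 1429 CPM in cluster 2, 1256 CPM in cluster 3 and 705 CPM in cluster 4. Adamtsl1 was highest in cluster 3 at 1029.6 CPM (1002 to 1058), with 268 CPM in cluster 1, 653 CPM in cluster 2 and 485 CPM in cluster 4. Nppc was thus higher in the clusters with more Pax7, Calcr and heat shock mRNA, and Erfe in those with more Myod1, with median depths of 9396 UMIs in cluster 1 and 7852 in cluster 2. The part of the heat shock genes in this split was not tested.

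Tnfaip6 had another order, at 984 CPM in cluster 4 (944 to 1024), 758 CPM in cluster 2, 406 CPM in cluster 3 and 331 CPM in cluster 1. Hmcn2 and Medag varied least among clusters 1 to 4. Hmcn2 lay between 558 CPM (cluster 1) and 1021 CPM (cluster 4), and Medag between 593 CPM (cluster 1) and 1018 CPM (cluster 2). Within cluster 1 the spread of Nppc remained wide, since 36.2% of its thinned cells had no UMI and 20.4% had 6 or more.

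**Figure D4:**
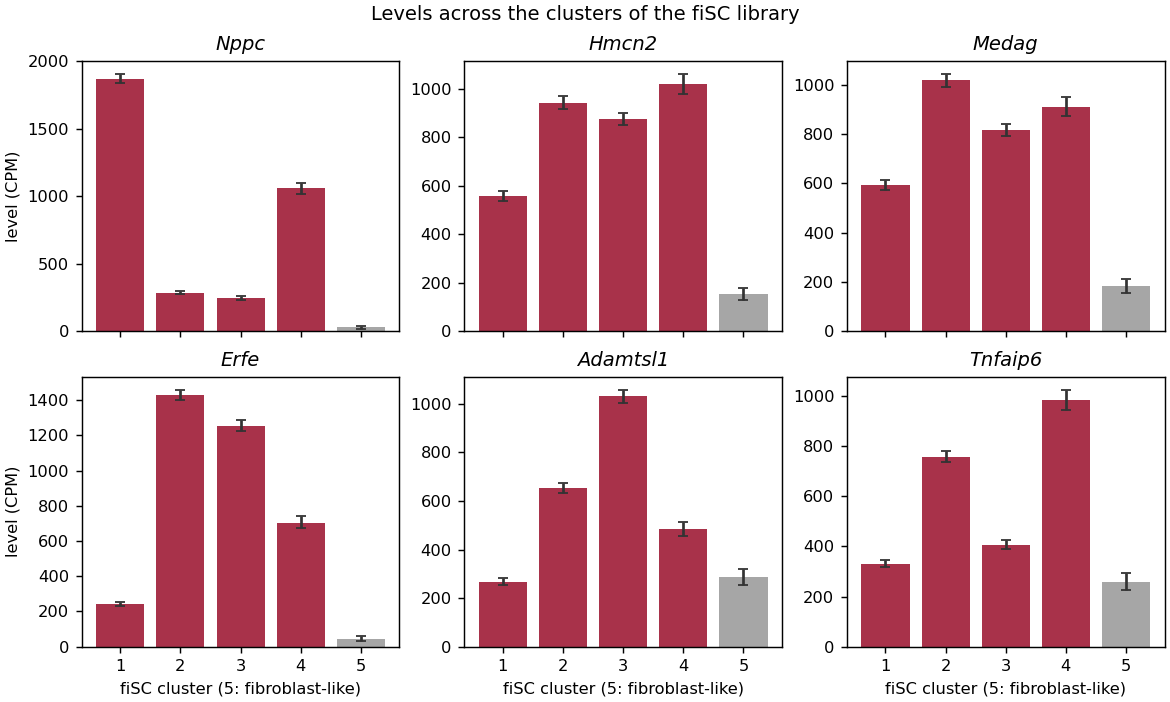
Level of each gene in CPM in the 5 clusters of the fiSC library, with exact Poisson 95% intervals as bars on the columns; cluster 5, in grey, is fibroblast-like with markers of several other types. Nppc is highest in cluster 1 (1871 CPM), Erfe in cluster 2 (1429 CPM), Adamtsl1 in cluster 3 (1029.6 CPM) and Tnfaip6 in cluster 4 (984 CPM).

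Cluster 5, the fibroblast-like cluster with markers of several types, held 0.160% of the library's Nppc UMIs, 0.246% of Erfe, 0.913% of Hmcn2, 1.09% of Medag, 2.23% of Tnfaip6 and 2.26% of Adamtsl1. Its levels were 27.3 CPM for Nppc, 46.3 CPM for Erfe, 151 CPM for Hmcn2, 182 CPM for Medag, 259 CPM for Tnfaip6 and 285 CPM for Adamtsl1. Against the progenitor-like cells at 850.1 CPM of Nppc and 615 CPM of Adamtsl1, the 6 genes were therefore not at 1 common ratio there. Of 50 thinned cells of cluster 5, 12% had an Nppc UMI, against 40.6% of progenitor-like cells, and 30% had one of Medag, against 61.0%.

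In progenitor-like cells alone every member was again lower outside fiSC, but the size of the gap moved for some. Nppc stood at 11.3 CPM in MPC, 0 UMIs in 1737 myoblast cells, 1.14 CPM in ASC and 850.1 CPM in fiSC. Erfe stood at 13.4 CPM in MPC, 6.16 CPM in myoblast, 4.38 CPM in ASC and 935 CPM in fiSC. Medag stood at 25.2 CPM in MPC, 0.389 CPM in myoblast, 2.40 CPM in ASC and 823 CPM in fiSC. Tnfaip6 stood at 1.10 CPM in MPC, 0.206 CPM in myoblast, 1.99 CPM in ASC and 564 CPM in fiSC. It was thus 284-fold lower in ASC (246 to 330), against 81.6-fold in the library sums, and 515-fold lower in MPC (414 to 648), against 332-fold. Medag was 2113-fold lower in myoblast (1319 to 3629), against 767-fold in the sums, and Tnfaip6 2738-fold lower there (1442 to 5988), against 1444-fold. Hmcn2 was 253-fold lower in MPC (223 to 288), against 165-fold. The other ratios with a UMI in both libraries lay within 1.5 times those of the sums. The progenitor-like cells of MPC leave out its cluster 9, which had no class name but Pax7 at 1234 CPM. That cluster held 41.7% of the Hmcn2 UMIs and 30.6% of the Nppc UMIs of MPC. The MPC ratios of these genes in progenitor-like cells therefore depend on how that cluster is classed. All 6 genes met the size rule as lower in these cells of MPC, where 16.1% of the genes measured did, of myoblast, where 17.3% did, and of ASC, where 24.2% did. The choice of the genes used these contrasts, so nothing is read from the counts. Between the cultures, Medag and Nppc met it as higher in progenitor-like MPC cells, as did 7.69% of the genes measured.

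The low counts outside fiSC were uneven over clusters. In ASC, Adamtsl1 reached 74.9 CPM, Medag 32.4 CPM and Erfe 19.4 CPM in cluster 9, 235 progenitor-like cells led by Mgp, Capn6 and Mybpc1 with Pax7 at 400.5 CPM. The other 3 progenitor-like ASC clusters had Adamtsl1 between 0.82 and 2.96 CPM. The 12 fibroblast-like cells of ASC were higher than cluster 9 for Adamtsl1, at 125 CPM (57 UMIs), and for Medag, at 136 CPM. They had 0 UMIs of Erfe. ASC cluster 9 had Hmcn2 at 7.09 CPM and Nppc at 2.43 CPM, so those genes were low even there. Its median cell had 17472 UMIs.

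Tnfaip6 outside fiSC lay mostly in cells that were not progenitor-like. In ASC, 12 fibroblast-like cells carried it at 970.4 CPM (444 UMIs, 36.8% of the library's) and macrophage-like cells at 10.4 CPM (519 UMIs, 43.0%), with progenitor-like cells at 1.99 CPM. The 46 endothelial-like cells of ASC had it at 60.4 CPM (22 UMIs), but they may be mixed. Their endothelial markers summed to 4050 CPM, against 3723 CPM for macrophage and 2761 CPM for mural markers. In MPC, 388 fibroblast-like cells led by Crabp1 and Mmp3 had Tnfaip6 at 16.2 CPM and 56.4% of its UMIs. In myoblast, 33 fibroblast-like cells held 52.4% of the 21 Tnfaip6 UMIs and 64.9% of the 57 Medag UMIs. Medag was also highest in fibroblast-like cells of MPC at 54.9 CPM and of ASC at 136 CPM. Nppc had 3.31 CPM (26 UMIs) in the fibroblast-like cells of MPC and 0 UMIs in those of myoblast and ASC. The floors there, 1.62 CPM in myoblast and 6.56 CPM in ASC, lie above its 0.018 and 0.759 CPM in the library sums. Nothing can therefore be read from these counts of 0.

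In MPC the Pax7-high cluster 9 (994 cells, led by Cdkn2a, Ano3 and Rgs5, and left without a class name) was highest for Nppc at 29.9 CPM and for Hmcn2 at 19.9 CPM. Cluster 5 (447 cells, led by Gal and Scg2) was highest for Erfe at 22.2 CPM and Adamtsl1 at 8.77 CPM. Muscle differentiation-like MPC cells had Nppc at 0.652 CPM and Medag at 2.73 CPM, below the 11.3 and 25.2 CPM of the progenitor-like MPC cells. In myoblast, Erfe was at 0.590 CPM in muscle differentiation-like cells, against 6.16 CPM in progenitor-like cells, while Adamtsl1 was at 7.43 CPM, against 4.65 CPM.

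**Figure D5:**
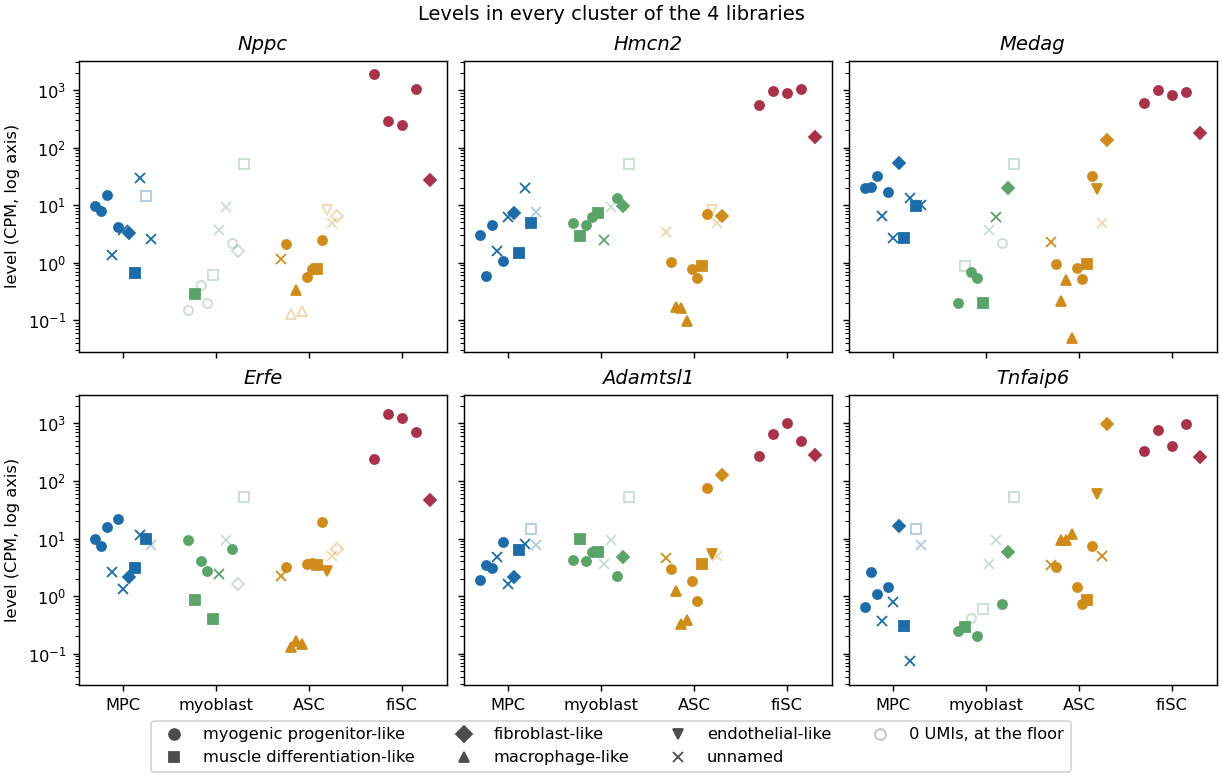
Level of each gene in every cluster of each library, in CPM on a log axis, with marker shape for the class of the cluster and pale symbols for clusters with 0 UMIs drawn at the floor of 3 counts. The ASC fibroblast-like cluster (12 cells) reaches 970.4 CPM of Tnfaip6, and in the remaining clusters outside fiSC the highest point is 74.9 CPM (Adamtsl1 in ASC cluster 9).

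Genes with the most similar pattern were named from 10635 genes by Pearson r of log2(CPM + 5) over 33 clusters of at least 50 cells, which come from 4 libraries and so mostly reflect the contrast of fiSC with the rest. The members had r between 0.86 (Nppc with Adamtsl1) and 0.95 (Hmcn2 with Adamtsl1) with each other. Nearest to all 6 jointly were Ppl, Ntf3, Arl4d, 4930578G10Rik, Bdkrb1, Serping1, Chodl, Ccl19, Chrdl2 and Slc10a6, with a mean r of 0.93 to 0.95. Ntf3 (neurotrophin 3) stood at 0.346 CPM in MPC, 0.218 CPM in myoblast, 0.497 CPM in ASC and 94.8 CPM in fiSC.

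Individually the nearest genes differed. Gabra3 was nearest to Nppc (r = 0.96), Ntf3 to Hmcn2 (0.97), the oncostatin M receptor Osmr to Medag (0.96), Tex26 to Erfe (0.97), Chodl to Adamtsl1 (0.96) and C1ra to Tnfaip6 (0.98). The MHC class I gene H2-Q4, Steap4 and Ppl were also among the 5 nearest to Tnfaip6. Cebpd, a transcription factor of early adipogenesis and acute phase responses, was among the 5 nearest to Medag.

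The other genes of each pathway, counted here without the 6 members, differed from list to list. Over all genes measured in the library sums, 27.9% were higher in MPC, 27.7% in myoblast and 24.6% in ASC than in fiSC, and 15.8%, 17.8% and 21.1% were lower. In progenitor-like cells 29.4% were higher in MPC, 28.9% in myoblast and 24% in ASC, and 16.1%, 17.3% and 24.2% were lower. These shares are the background for the counts below, which come from short lists. Counts in progenitor-like cells are given beside the sums because macrophage-like cells made up 46.7% of ASC cells.

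In the natriuretic peptide system, 2 of 5 measured genes were higher and 2 lower in MPC (median log2 ratio 0.53), 3 of 6 higher and 0 lower in myoblast (0.62), and 1 of 5 higher and 2 lower in ASC (-0.99). In progenitor-like cells the counts were 2 higher and 1 lower of 5 in MPC, 3 higher and 0 lower of 6 in myoblast, and 1 higher and 1 lower of 5 in ASC. Npr2, the receptor for the Nppc product, stood at 2.72 CPM in MPC, 9.70 CPM in myoblast, 1.14 CPM in ASC and 11.7 CPM in fiSC, and the clearance receptor Npr3 at 1.81, 5.31, 0.447 and 6.04 CPM in that order. The cGMP-dependent kinase Prkg1 ran the other way in the cultures, at 554 CPM in MPC, 145 CPM in myoblast, 10.4 CPM in ASC and 25.7 CPM in fiSC, and so did Prkg2 at 33.0, 122, 19.1 and 1.15 CPM. Prkg1 in progenitor-like cells was at 689 CPM in MPC, 65.9 CPM in myoblast, 9.85 CPM in ASC and 20.9 CPM in fiSC. The other peptides Nppa and Nppb had 0 UMIs in fiSC, where the floor of 3 counts is 0.150 CPM.

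Among hemicentins, fibulins and basement membrane genes, 3 of 11 measured were higher and 1 lower in MPC (median log2 ratio 0.43), 4 of 11 higher and 1 lower in myoblast (-0.11), and 9 of 10 lower in ASC (-1.59). In progenitor-like cells 6 of 11 were higher and 1 lower in MPC, and 8 of 9 lower in ASC. Hmcn1, the other hemicentin, stood at 22.8 CPM in MPC, 6.13 CPM in myoblast, 2.69 CPM in ASC and 15.6 CPM in fiSC. Fbln1 was the highest by ratio in MPC, with 121 CPM, against 1.65 CPM in fiSC. Col4a1, a collagen of the basement membrane, was at 445 CPM in MPC, 257 CPM in myoblast, 6.19 CPM in ASC and 473 CPM in fiSC, and in progenitor-like cells of ASC it was at 2.87 CPM, against 477 CPM in those of fiSC.

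ADAMTS-like genes and their partners were lower in 4 of 11 measured and higher in 3 in MPC (median log2 ratio -0.25), lower in 5 of 10 and higher in 1 in myoblast (-1.60), and lower in 7 of 9 in ASC (-2.61). In progenitor-like cells they were lower in 4 of 10 in MPC, 5 of 10 in myoblast and 6 of 9 in ASC. The proteoglycan-cleaving protease Adamts1 had 34.6 CPM in MPC, 5.42 CPM in myoblast, 8.68 CPM in ASC and 439.8 CPM in fiSC. Thsd4, another ADAMTS-like gene, had 77.8, 12.2, 2.98 and 202 CPM in the same order. Fbn2 (fibrillin 2) was the highest by ratio in MPC, at 53.5 CPM, against 3.05 CPM in fiSC, and Adamtsl5 in myoblast, at 18.2 CPM, against 2.10 CPM in fiSC.

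In the hyaluronan matrix list, 4 of 8 measured genes were lower and 3 higher in MPC (median log2 ratio -0.33), 3 of 9 lower and 5 higher in myoblast (1.197), and 3 of 7 lower and 1 higher in ASC (-0.80). In progenitor-like cells 4 of 8 were lower and 3 higher in MPC, 3 of 8 lower and 4 higher in myoblast, and 4 of 7 lower and 1 higher in ASC. Ptx3, which binds the TSG-6 protein, stood at 0.485 CPM in MPC, 0.181 CPM in myoblast, 1.54 CPM in ASC and 55.0 CPM in fiSC. Itih5, of the inter-alpha-inhibitor heavy chain family, stood at 9.15, 0.181, 2.82 and 77.2 CPM. The synthases split, with Has1 at 3.00 CPM in MPC, 3.08 CPM in myoblast, 1.75 CPM in ASC and 30.9 CPM in fiSC and Has2 at 12.9, 33.1, 6.94 and 2.55 CPM. Vcan, a hyaluronan-binding proteoglycan, had 134 CPM in MPC, against 42.6 CPM in fiSC, and the hyaluronidase Hyal2 13.1 CPM in ASC, against 1.60 CPM in fiSC.

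For erythroferrone relatives and BMP or iron signalling, 7 of 14 measured genes were lower and 4 higher in MPC (median log2 ratio -1.06), 7 of 14 lower and 3 higher in myoblast (-0.69), and 7 of 11 lower and 1 higher in ASC (-1.65). In progenitor-like cells 7 of 13 were lower in MPC, 7 of 13 in myoblast and 7 of 12 in ASC. Bmp6, a ligand that erythroferrone binds, stood at 0.809 CPM in MPC, 0.925 CPM in myoblast, 3.33 CPM in ASC and 370 CPM in fiSC, and Bmp4 at 1.69, 0.871, 3.18 and 139 CPM. The transferrin receptor Tfrc was higher in all 3 other libraries, at 64.2 CPM in MPC, 69.7 CPM in myoblast and 94.1 CPM in ASC, against 24.1 CPM in fiSC. Hjv, a BMP co-receptor, had 15.5 CPM in MPC and 16.0 CPM in myoblast, against 0.0998 CPM (2 UMIs) in fiSC, but 2.51 CPM and 0.710 CPM in the progenitor-like cells of the cultures. The BMP target Id1 did not meet the size rule in any of the 3 library sums, at 98 CPM in MPC, 248 CPM in myoblast, 103 CPM in ASC and 127 CPM in fiSC. In progenitor-like cells it met the rule in myoblast, at 260.0 CPM, against 117 CPM in fiSC.

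Early adipogenesis genes, the group around Medag, were lower in 6 of 11 measured and higher in 3 in MPC (median log2 ratio -1.55), lower in 7 of 10 and higher in 3 in myoblast (-1.72), and lower in 2 of 10 and higher in 4 in ASC (0.67). In progenitor-like cells 4 of 9 were lower and 4 higher in MPC (-0.40), 5 of 8 lower and 2 higher in myoblast (-1.84), and 5 of 8 lower and 2 higher in ASC, so the ASC median there was -1.28. Cebpd stood at 37.7 CPM in MPC, 12.8 CPM in myoblast, 12.6 CPM in ASC and 1395 CPM in fiSC. The later regulator Pparg stood at 1.36, 5.53, 11.1 and 20.4 CPM, and the fat cell hormone Adipoq had 0 UMIs in fiSC. Pparg was at 30.9 CPM in ASC macrophage-like cells and 3.73 CPM in ASC progenitor-like cells, against 20.4 CPM in progenitor-like cells of fiSC. Dlk1, an inhibitor of fat cell differentiation, had 142 CPM in MPC, against 1.65 CPM in fiSC, and the lipid droplet gene Plin2 61.1 CPM in myoblast, against 21.4 CPM in fiSC. The scavenger receptor Cd36 had 244 CPM in ASC, against 14.9 CPM in fiSC, with 858 CPM in ASC macrophage-like cells. In progenitor-like cells Cd36 had 5.09 CPM in ASC, against 0.419 CPM in fiSC.

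Immediate early and heat shock genes were also lower outside fiSC. Of the 21 genes, 21 were lower in MPC (median log2 ratio -4.05), 21 in myoblast (-4.54) and 19 in ASC (-3.06), and 21 were lower in the progenitor-like cells of each. Hspa1a stood at 0.890 CPM in MPC, 1.05 CPM in myoblast, 76.4 CPM in ASC and 4933 CPM in fiSC. Of the NF-kB and inflammatory targets, 11 of 12 measured were lower in MPC (-3.51), 11 of 12 in myoblast with 1 higher (-3.74), and 7 of 14 in ASC with 4 higher (-0.74). In progenitor-like cells 11 of 11 were lower in MPC, 11 of 12 in myoblast with 1 higher, and 11 of 11 in ASC (-2.97). Il1b, an inflammatory cytokine, was at 0.427 CPM in MPC, 1.83 CPM in myoblast, 446 CPM in ASC and 2.20 CPM in fiSC. In ASC it stood at 1537 CPM in macrophage-like cells and 8.41 CPM in progenitor-like cells. The chemokine Cxcl1 was at 8.52, 0.345, 538 and 1972 CPM in the order of the libraries, and at 47.7 CPM in progenitor-like ASC cells, against 2021 CPM in those of fiSC. The part of these 2 lists in the levels of the 6 genes was not tested. Across progenitor-like fiSC cells, 5 of the 6 genes had an r of -0.38 to -0.01 with the summed first list and Nppc had 0.41.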

How the data were processed

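Droplet-based single-cell RNA-seq (10x chemistry v3.1, NovaSeq 6000, per the labels' protocols) was aligned with STAR 2.7.10b to GRCm39, per the submitters' processing notes. UMI collapsing, cell calling and the annotation are not given in the sources used here. The authors deposited raw, unnormalized UMI counts for each gene and barcode. The 22 symbols on several features were summed. The members and gene lists were chosen with earlier results of these data known. A cell needed 1000 UMIs or more, 500 genes or more and a mitochondrial share of no more than 10%, and Scrublet doublets were removed (799 MPC, 47 myoblast, 297 ASC and 59 fiSC). Its automatic threshold served where it marked at least 0.5% of cells (ASC only). Elsewhere the quantile at 0.8% per 1000 cells was used, a choice made after the thresholds were seen, so doublets in those libraries are less certain.

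Each library was clustered with scanpy 1.11.5 (2000 variable genes, 30 components, 15 neighbours, Leiden resolution 0.5). The members, myogenic, cell cycle, mitochondrial and reporter genes were left out. Clusters were named from at least 3 markers at 20 CPM or more, with details of naming set after the clusters were seen. UMIs were summed per library, class or cluster and scaled to CPM, with 5 CPM added before each log2 ratio. A count of 0 was read against a floor of 3 counts. Thinning drew 2000 UMIs per cell. The functions were checked on simulated counts. The text names all 6 members, genes from the 5 nearest to each by correlation over clusters (10 for all jointly, and not every gene is reported here), and genes at the ends of each pathway list. Further list genes, and the clusters described, were picked after their values were seen. Other scalings, pseudocounts, cell filters and clusterings were tried. Counting the pathway lists in progenitor-like cells was chosen after the data were seen.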

Additional observations from a re-analysis of the deposited data

How the results depend on the processing

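All 6 genes met the size rule as lower in MPC, myoblast and ASC than in fiSC under all 10 alternatives tried, which were TMM factors (edgeR), median-of-ratios factors, pseudocounts of 1 and 10 CPM, no minimum level, every deposited barcode, a strict cell filter, doublets kept, progenitor-like cells only and fibroblast-like cells left out. Their log2 ratios then lay between -9.64 (Nppc in myoblast, pseudocount of 1 CPM) and -4.75 (Medag in MPC). The choice of the genes used these contrasts, so nothing is read from the counts. With a minimum level kept, the genes called lower numbered 1310 of 9705 to 2017 of 9525 measured in MPC. They numbered 1459 of 9591 to 2037 of 9540 in myoblast, and 1604 of 9544 to 2200 of 9324 in ASC. Between MPC and myoblast the count of members was 1, and 2 (Medag and Nppc) with no minimum level, the strict filter, progenitor-like cells only or fibroblast-like cells left out, since Nppc lay at the minimum of 10 CPM. In those settings, in that order, 689 of 25804, 648 of 9637, 724 of 9409 and 619 of 9406 genes were higher in MPC. In progenitor-like cells, a setting chosen after the data were seen, 14 counts over the pathway lists moved by more than 1.5 times and 50 did not. The median of the early adipogenesis genes changed sign in ASC, at -1.28, against 0.67 in the library sums. Median-of-ratios factors moved the median log2 ratio of all genes in MPC over fiSC to 0.04, against 0.35, and the share of higher among called genes to 48.9%, against 63.9%. TMM moved the ASC median to 0.33, against 0.08, and that share to 64.1%, against 53.9%. The Fano factor of Nppc was 4.51 thinned to 1000 UMIs and 16.7 thinned to 4000 UMIs, and Nppc stayed the most uneven of the 6. No paired analysis was possible because each group has 1 library. Depth limits mainly Nppc in myoblast, which rests on 1 UMI.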
